A study of Mus musculus with 3 samples.

Results

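The genes described here are 10 that set limits to T cell responses or counter such limits: the receptor genes Lag3, Havcr2 (TIM-3), Tigit, Cd96, Cd226, Cd160 and Vsir (VISTA, listed in the count table under its older name 4632428N05Rik), the ligand gene Cd200, and the genes of the nuclear factors Tox and Tox2. They were chosen by symbol, all 10 were in the table, and they make up 10 of its 44788 symbols. RNA-seq read counts came from 3 libraries of splenic T lymphocytes of female BALB/c mice aged 6 to 8 weeks. The cells had been captured on magnetic beads that bind CD90.2, the Thy1 protein that mouse T cells display, kept in medium with 2% serum, and exposed to LZ-8 for 15 h. LZ-8 is an immunomodulatory protein of the fungus Ganoderma lucidum. All 3 libraries carry the same treatment and time, so the values are levels in LZ-8-treated cells and not responses to LZ-8; untreated cells were not analysed here. The sources used here give no dose. They do not state whether different mice or cultures gave the replicates. The p-values and SDs therefore speak of these 3 libraries only, and the spread between the libraries may be technical.

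Inhibitory receptors of T cells curb signalling by the T cell receptor after activation. LAG3 binds MHC class II molecules, TIM-3 binds galectin-9 among other ligands, and VISTA is a B7 family member that is carried by resting T cells and by myeloid cells. TIGIT and CD96 compete with the activating receptor CD226 for the ligand CD155 (gene Pvr). CD160 shares its ligand HVEM (gene Tnfrsf14) with BTLA, and CD200 acts as a ligand for CD200 receptors, which are best known from myeloid cells. TOX and TOX2 are HMG-box proteins; TOX is needed for CD4 lineage development in the thymus and for the exhausted state of chronically stimulated T cells.

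Upstream sequence is shown for Tigit, Cd200 and Cd96, which lie near each other on chromosome 16, and for Havcr2, the receptor gene with the lowest level. The levels of the former 3 overlapped per kilobase of all annotated exons. With the longest annotated transcript as length Tigit and Cd96 still overlapped while Cd200 lay above them, and without length scaling none overlapped. Each is the 250 bases before a start site in RefSeq (GRCm38.p6), 5′ to 3′ in the direction of the gene; capitals mark GGAAA, the core bound by NFAT factors, on either strand.
Tigit (chr16:43664185-43664434, minus strand): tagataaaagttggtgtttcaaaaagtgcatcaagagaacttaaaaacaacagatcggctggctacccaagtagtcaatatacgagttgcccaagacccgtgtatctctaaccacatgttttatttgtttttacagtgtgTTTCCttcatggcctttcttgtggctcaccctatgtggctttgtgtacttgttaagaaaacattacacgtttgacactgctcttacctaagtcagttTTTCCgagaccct
Cd200 (chr16:45409054-45409303, minus strand): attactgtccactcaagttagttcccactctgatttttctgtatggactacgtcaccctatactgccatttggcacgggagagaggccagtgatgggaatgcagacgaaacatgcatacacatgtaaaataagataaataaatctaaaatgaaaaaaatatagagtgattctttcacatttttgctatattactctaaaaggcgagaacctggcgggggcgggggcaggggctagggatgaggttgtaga
Cd96 (chr16:46120249-46120498, minus strand): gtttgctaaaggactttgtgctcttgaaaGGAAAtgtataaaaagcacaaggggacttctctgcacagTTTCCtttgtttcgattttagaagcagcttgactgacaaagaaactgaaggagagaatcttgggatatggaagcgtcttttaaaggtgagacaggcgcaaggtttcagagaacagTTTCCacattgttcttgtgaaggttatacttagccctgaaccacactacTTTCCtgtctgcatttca
Havcr2 (chr11:46454681-46454930, plus strand): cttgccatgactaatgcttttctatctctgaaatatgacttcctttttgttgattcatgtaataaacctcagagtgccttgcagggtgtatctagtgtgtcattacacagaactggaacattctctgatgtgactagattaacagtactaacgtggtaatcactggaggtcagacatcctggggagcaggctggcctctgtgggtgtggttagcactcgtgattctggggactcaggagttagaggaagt

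The Cd96 window held 4 matches to GGAAA and the Tigit window 2, while the Cd200 and Havcr2 windows held 0. Such a match was present in 55.6% of all 32851 RefSeq windows of this length. The AP-1 motif TGANTCA, also searched on both strands, matched in Havcr2 (1 match) and in none of the other 3 windows, against 6.75% of all windows. The windows were poor to average in CpG dinucleotides, with 5 in Tigit, 6 in Cd200, 3 in Cd96 and 2 in Havcr2, beside a median of 6 over all windows. RefSeq windows were matched for 7 of the 10 genes (12 start sites). Among those not printed, the Vsir window had 9 CpG dinucleotides. The Tox2 windows differed by start site, with 27, 35, 19, 5 and 5 in the order listed, and GC contents from 52.8 to 78.8%. These matches describe the letters of the windows only.

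The libraries held 12669690 to 19041670 counts, and a gene without reads in a library could still have had up to 0.158 to 0.237 CPM (counts per 1000000 counts of the library), the limit that a count of 0 allows. Limits and intervals cover counting error only. The labelled cell type was borne out by its markers: all 13 T cell genes listed were above 10 CPM, led per kilobase by Trac, Lck and Cd2, and they summed to 5102 to 5290 CPM. Listed genes of CD4, CD8 and regulatory T cells were all present, with sums of 476 to 494, 319 to 325 and 1318 to 1349 CPM. Levels and ratios are therefore those of T cells in bulk, and the share of each kind was not measured. Markers of other cells that carry the same receptors were low. The 8 NK cell genes summed to 29.6 to 32.8 CPM, of which Eomes (17.5 ± 1.59 CPM; SD, n = 3) and Klrk1 (10.7 ± 0.154 CPM), both also made by CD8 T cells, formed the most; Ncr1 had 0, 0 and 9 reads, and Klre1 and Klra8 had none. The 8 macrophage and monocyte genes summed to 3.71 to 4.76 CPM, mostly Cd68, with no read of Csf1r, C1qa or Fcgr1 in any library. The 6 dendritic cell genes summed to 9.72 to 11.8 CPM, mostly Zbtb46 (9.49 ± 1.22 CPM), with no read of Clec9a. The 6 B cell genes summed to 16.7 to 18.5 CPM, the 5 gamma delta T cell genes to 7.50 to 7.98 CPM, the 4 neutrophil genes to 0.105 to 0.158 CPM and the 5 endothelial genes to 0.158 to 0.237 CPM. In such bulk libraries fewer cells of a type and less RNA per cell cannot be told apart.

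All 10 genes were detected in each library, and their levels spanned a wide range. Levels of different genes were compared as CPM per kilobase of annotated exon, since longer transcripts yield more reads. On this scale Lag3 was highest at 55.5 ± 2.40 (SD, n = 3), Vsir followed at 31.5 ± 1.58, and Tigit (26.2 ± 1.05), Cd200 (25.5 ± 0.337) and Cd96 (24.5 ± 1.54) formed a close group. Cd226 stood at 11.7 ± 0.759, Tox at 5.31 ± 0.136 and Cd160 at 2.74 ± 0.479, while Havcr2 (1.003 ± 0.0398) and Tox2 (0.812 ± 0.164) were lowest. The mean level of Lag3 was 68.4-fold that of Tox2. The median over the 10 genes was 18.1 CPM per kilobase, beside 8.26 over the 12781 tested genes with a length, and 6 of the 10 lay above the latter. Lag3 was higher than 91.3% of those genes, Vsir than 83.4%, Cd226 than 60.2%, Tox than 38.8% and Tox2 than 8.24%.

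Of the 9 pairs of neighbours in this order, 6 had ranges over the libraries that did not overlap. The 3 that overlapped were Tigit and Cd200, Cd200 and Cd96, and Havcr2 and Tox2, so the order within these was not set by the data. The narrowest gap that held in each library was that of Vsir over Tigit, by 1.16 to 1.25-fold. The order depended on the length used: with the longest annotated transcript in place of all exons, Cd200 moved up to the second place, ahead of Vsir, and 3 of 10 positions changed. Without length scaling 8 of 10 positions changed, with Vsir above Lag3 at the top and Tigit below Tox.

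**Figure D1:**
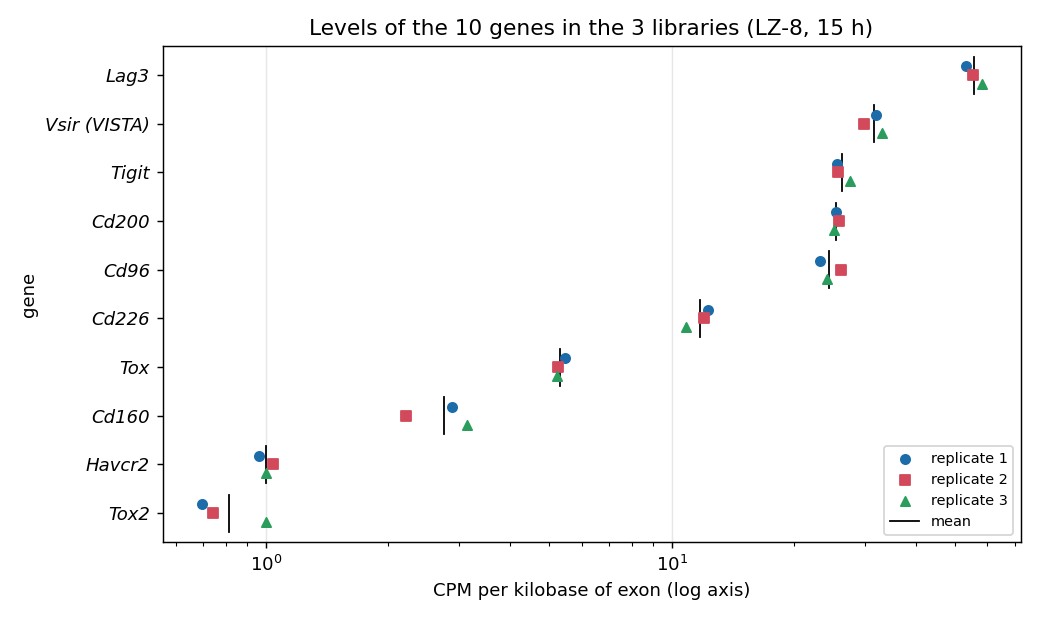
Level of each of the 10 genes in CPM per kilobase of exon (horizontal log axis), with a point for each of the 3 libraries and a vertical bar for their mean. Lag3 lies apart at the top, Tigit, Cd200 and Cd96 share a level with all exons as length, and Havcr2 and Tox2 lie at about 1 CPM per kilobase. With the longest annotated transcript as length, Cd200 stood at 36.0, above Tigit (26.2) and Cd96 (24.5).

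Lag3, on chromosome 6 at 124904361 to 124911705 (GRCm38, minus strand), encodes the MHC class II receptor that CD4 resembles in structure. It had 2137, 1479 and 1800 reads in replicates 1, 2 and 3, or 53.2, 55.4 and 58.0 CPM per kilobase. The values lay close together, with replicate 1 lowest and replicate 3 highest. Cd4 itself is the nearest gene on one side, 16139 bases away, and Ptms the nearest on the other, 1975 bases away. Per kilobase Lag3 stood at 0.595-fold of Cd4, a log2 ratio of -0.75 ± 0.02. Counting errors averaged 2.35% per library for Lag3 and 1.31% for Cd4, so this spread lay within counting error. Lag3 was 2.98-fold above Pdcd1, the gene of the inhibitory receptor PD-1 (log2 ratio 1.57 ± 0.04, higher in 3 of 3 libraries). Of its possible ligands, the class II genes H2-Eb1 (5.01 ± 0.449 CPM per kilobase), H2-Aa (3.58 ± 0.022) and H2-Ab1 (2.26 ± 0.256) were present at a low level, as was the galectin gene Lgals3 (1.10 ± 0.171). Fgl1 and Clec4g, which encode other reported ligands, had no read in any library. The genes of the proteases that shed LAG3 from the cell surface were higher, with Adam10 at 29.7 ± 1.71 and Adam17 at 13.3 ± 0.775 CPM per kilobase.

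Havcr2, on chromosome 11 at 46454935 to 46481255, encodes TIM-3, a receptor of terminally differentiated Th1 and exhausted CD8 T cells. It had only 50, 36 and 40 reads, or 2.63, 2.84 and 2.72 CPM. The exact 95% Poisson intervals were 1.95 to 3.46, 1.99 to 3.93 and 1.94 to 3.70 CPM, so the libraries could not be told apart and only a large difference between them would have been detectable at this depth. Per kilobase Lag3 exceeded Havcr2 by 54.7-fold, with 54.6, 52.3 and 57.4-fold in replicates 1, 2 and 3. Lgals9, the gene of the ligand galectin-9, stood at 37.8 ± 1.82 CPM per kilobase, and the adaptor genes Bag6 and Fyn at 62.2 ± 1.51 and 79.3 ± 1.97. The ligand gene Hmgb1 was counted at 3.53 ± 0.246. Sequence that it may share with other genes was not examined, and the handling of multi-mapped reads is not given, so its true level may differ. Ceacam1 (a reported partner of TIM-3) and the family member Timd4 had no read in any library.

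The genes of the CD155 receptors were all expressed, with both inhibitory or competing receptors above the activating one per kilobase. Tigit (chromosome 16, 43648867 to 43664146) had 446, 300 and 371 reads, or 25.5, 25.8 and 27.4 CPM per kilobase. Cd96 (chromosome 16, 46035657 to 46120251) had 963, 724 and 775 reads, or 23.2, 26.2 and 24.1 CPM per kilobase. The libraries of the 2 genes overlapped. Cd226, on chromosome 18, had 1143, 745 and 781 reads, or 12.3, 12.0 and 10.9 CPM per kilobase, with replicate 3 lowest and each library below each library of the other 2 genes. Tigit was 2.24-fold above Cd226 (log2 ratio of Cd226 to Tigit -1.17 ± 0.15, lower in 3 of 3 libraries) and Cd96 2.09-fold above it (log2 ratio 1.06 ± 0.13). Cd96 and Tigit differed by -0.10 ± 0.11 log2 units, less than the spread between libraries. These directions rest on transcript length, since Tigit is short (919 bases of exon, against 2184 for Cd96 and 4891 for Cd226). In reads alone Cd226 outnumbered Tigit 2.37-fold and Cd96 outnumbered Tigit 2.21-fold, while Cd96 to Cd226 turned to a log2 ratio of -0.10. Of the 31-mers of Tigit transcripts, 8.37% also occurred in other genes, the highest share among the 10.

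The shared ligand gene Pvr (CD155) was at 4.53 ± 0.523 CPM per kilobase, below its 3 receptor genes in each library on this scale. For Tigit this rests on length, since Pvr had more reads than Tigit in each library (27.7 ± 3.20 against 24.1 ± 0.967 CPM). The other nectin genes were close to silent: Pvrl1 had 6, 6 and 12 reads, Pvrl4 had 8, 3 and 10, and Pvrl2 (CD112, a ligand of CD226) had 2, 2 and 1. Crtam, a related receptor of activated CD8 and NK cells, stood at 2.57 ± 0.351 CPM per kilobase. Of the 7 genes of this list in the table only 2, Pvr and Crtam, reached the level needed for testing, and Pvr varied between the libraries (24.63, 31.02 and 27.52 CPM in replicates 1, 2 and 3; adjusted p = 0.0283 in edgeR's likelihood-ratio test). Genes listed as partners of CD226 were abundant. The integrin genes Itgal and Itgb2 (LFA-1) were at 115 ± 1.62 and 98.1 ± 3.96 CPM per kilobase, and Vav1 and Plcg1 at 52.6 ± 0.268 and 24.6 ± 0.273. Tigit was also set beside Foxp3, the regulatory T cell factor, since regulatory T cells are known to carry TIGIT. The log2 ratio of Tigit to Foxp3 per kilobase was -0.49, -0.50 and -0.51, the narrowest spread among the 12 ratios (SD 0.01). The counting error of Tigit averaged 5.18% per library, so these ratios lay closer together than counting alone would give on average. Nothing is read from this narrow spread.

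Cd160 (chromosome 3, 96798763 to 96829351) encodes a GPI-anchored receptor of CD8 T cells, NK cells and gamma delta T cells. It had 145, 74 and 122 reads, or 7.61, 5.84 and 8.29 CPM, with replicate 2 lowest. Pdzk1 on the opposite strand overlaps 68 of its exon bases (2.57%), and Pdzk1 itself had 15, 23 and 11 reads. The receptor gene Btla was 15.2-fold above Cd160 per kilobase (14.4, 19.1 and 12.8-fold in replicates 1, 2 and 3). Tnfrsf14 (HVEM), the gene of their shared ligand, stood higher still at 123 ± 1.32 CPM per kilobase, and Tnfsf14 (LIGHT, another HVEM ligand) at 7.61 ± 0.605.

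Cd200 (chromosome 16, 45382135 to 45409053) had the steadiest level of the 10 genes, at 84.4, 85.8 and 83.6 CPM, a coefficient of variation of 1.32%. Its counting error per library averaged 2.77%, so the 3 values lay closer together than counting alone would give on average. The receptor genes were low, with Cd200r1 at 55, 22 and 40 reads, Cd200r4 at 23, 15 and 9, and Cd200r2 at none. Cd200 exceeded Cd200r1 by 35.2-fold per kilobase (log2 ratio 5.14 ± 0.41). Dok2 and Dok1, adaptors of the CD200 receptor, were at 39.4 ± 0.429 and 10.5 ± 0.494 CPM per kilobase. Between gene starts Cd200 lies 1.73 Mb from Tigit, with Btla and the CD200 receptor genes in between, and Cd96 lies 2.39 Mb from Tigit.

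Vsir (chromosome 10, 60346851 to 60372684) encodes VISTA and lies within the span of Cdh23, a cadherin gene of the opposite strand. The exons of the 2 genes do not overlap, and Cdh23 had 201, 119 and 144 reads, against 3041, 1893 and 2428 for Vsir. Vsir stood at 31.9, 29.8 and 32.9 CPM per kilobase, with replicate 2 lowest. Per kilobase it lay at 0.568-fold of Lag3 (log2 ratio -0.82 ± 0.08), although it had more reads than Lag3 in each library, 1.35-fold on average. Of its reported partners, Selplg (PSGL-1) was at 63.5 ± 2.49 and Lrig1 at 25.8 ± 0.968 CPM per kilobase. Igsf11 had 2, 1 and 1 reads, and Vsig8 and Vsig4 had none.

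**Figure D2:**
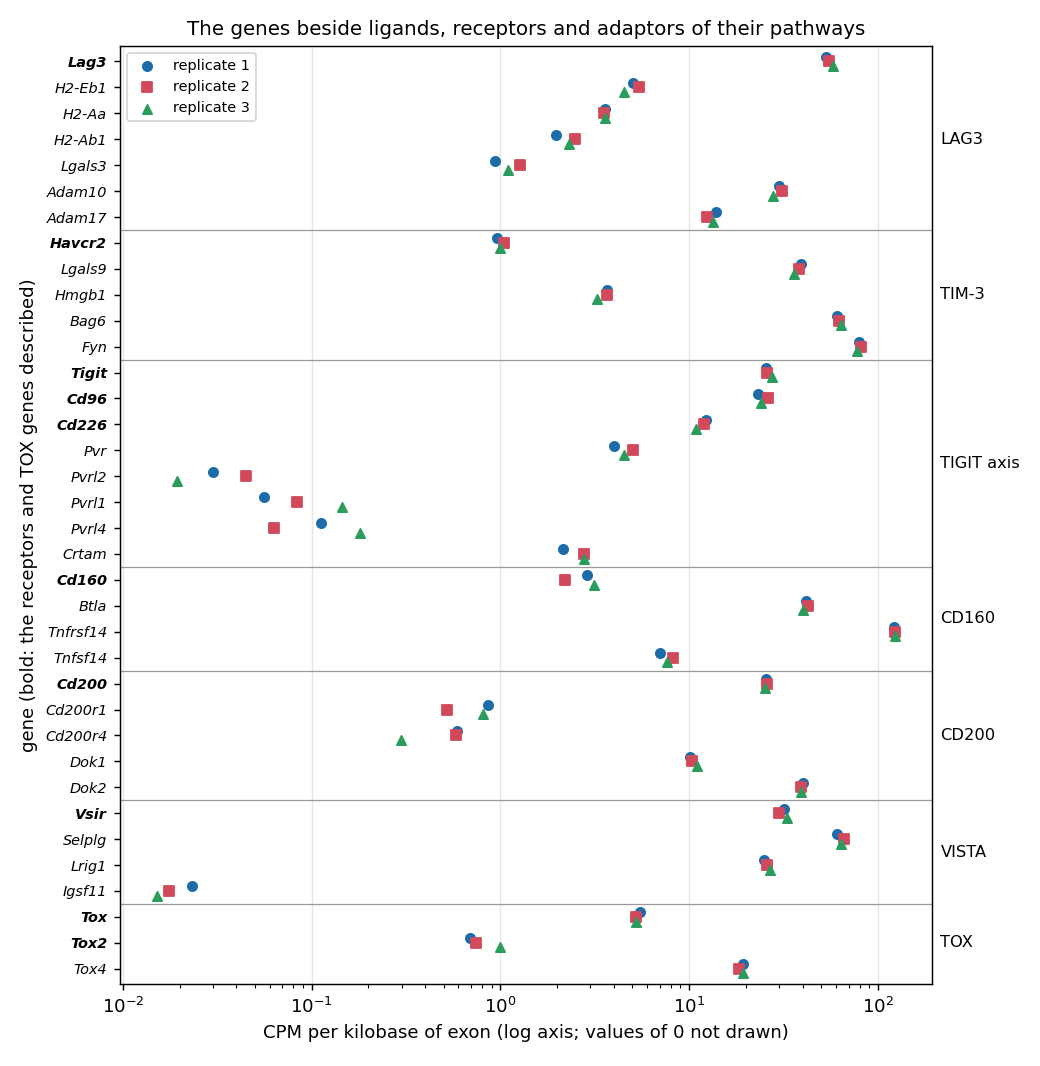
CPM per kilobase of exon (horizontal log axis) for the 10 genes (bold) and selected listed genes of their pathways, with a point for each of the 3 libraries. The ligand genes Pvrl1, Pvrl2 and Igsf11 and the receptor gene Cd200r1 lie below the genes they pair with, while Lgals9, Tnfrsf14 and Selplg lie above theirs.

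Tox was expressed at a moderate level and Tox2 at a low level. Tox (chromosome 4, 6686353 to 6991557) had 792, 506 and 584 reads, or 5.47, 5.25 and 5.22 CPM per kilobase. Tox2 (chromosome 2, 163203125 to 163324170) had 45, 32 and 50 reads, or 0.695, 0.743 and 0.999 CPM per kilobase. The log2 ratio of Tox to Tox2 was 2.71 ± 0.30, a 6.55-fold difference that held in 3 of 3 libraries. The exons of all annotated Tox transcripts add up to 7609 bases but the longest transcript to 3961, and with the latter length the ratio rose to 10.9-fold. Gm11802, an antisense gene, overlaps 3.42% of the Tox exon bases, and whether reads were counted by strand is not given in the sources used here. In the same family, Tox4 stood at 19.1 ± 0.536 CPM per kilobase and Tox3 had no read.

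Of 15 listed genes that induce TOX or accompany it in exhausted cells, 11 lay above Tox per kilobase of exon, and 10 with the longest transcripts, where Tox itself stood at 10.2. Irf4 (492 ± 20.6 CPM per kilobase), Tcf7 (225 ± 4.17), Nr4a1 (62.2 ± 4.57), Nfatc1 (41.5 ± 0.510), Bach2 (37.8 ± 1.38) and Tbx21 (34.1 ± 1.22) were the highest of the 15 listed, which had a median of 23.2 CPM per kilobase, and 14 of them were above 10 CPM. Below Tox were Eomes (4.21 ± 0.382), Prdm1 (2.997 ± 0.216), Bcl6 (2.64 ± 0.069) and Nr4a2 (2.13 ± 0.094), named after their values were seen. Tcf7, the gene of the memory and stem-like factor TCF1, was 42.4-fold above Tox per kilobase of exon (log2 ratio of Tox to Tcf7 -5.41 ± 0.03), 23.5-fold with the longest transcripts as lengths and 14.6-fold in reads. Among the other inhibitory receptor genes Cd5 (134 ± 4.31), Btla (41.4 ± 1.06), Ctla4 (30.8 ± 0.587) and Pdcd1 (18.6 ± 0.872 CPM per kilobase) were highest, and per kilobase Lag3 lay between Cd5 and Btla. Without length scaling Btla exceeded Lag3 (140.7 ± 3.61 against 117.1 ± 5.05 CPM). Of the phosphatase genes through which several of these receptors act, Ptpn6 (SHP-1) stood at 156 ± 3.85 and Ptpn11 (SHP-2) at 30.3 ± 1.64 CPM per kilobase, and Csk, the gene of a kinase that restrains Lck, at 72.3 ± 2.51.

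The 12 ratios between genes were each tested over the 3 libraries with an exact two-sided sign-flip permutation test, for which p = 0.25 is the smallest value possible, so none could pass a threshold of 0.05. In this exact permutation test 11 ratios gave p = 0.25 (adjusted p = 0.273) with the same sign in each library, and Cd96 to Tigit gave p = 0.5 (adjusted p = 0.5). Counting intervals were narrow where reads were many: Cd226 made up 71.9% of the reads of Cd226 and Tigit in replicate 1, with an exact (Clopper-Pearson) 95% interval of 69.7 to 74.1%. The share was 71.3% for replicate 2, between bounds of 68.4 and 74.0%, and 67.8% for replicate 3, between bounds of 65.0 and 70.5%.

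**Figure D3:**
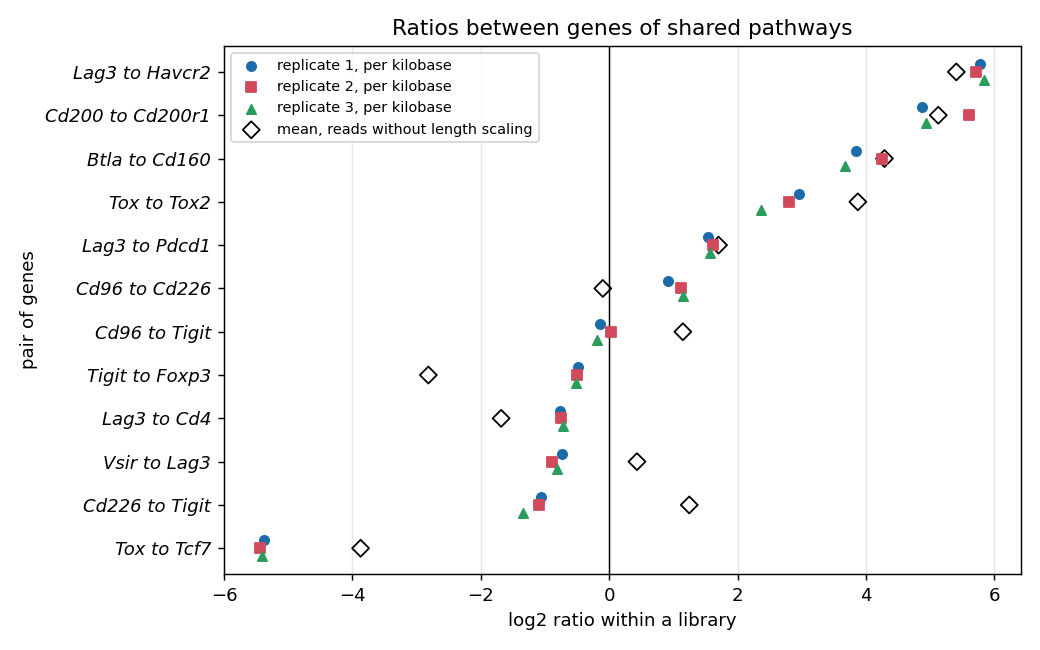
Log2 ratio of the 2 genes of each pair within a library (horizontal axis), per kilobase of exon for each of the 3 libraries (filled points) and as the mean without length scaling (open diamonds). Lag3 to Havcr2 is the highest ratio at 5.77, Tox to Tcf7 the lowest at -5.41, and the diamonds of Cd226 to Tigit, Cd96 to Tigit, Cd96 to Cd226 and Vsir to Lag3 lie on the other side of 0.

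The libraries were then compared gene by gene. All 10 genes passed the filter (at least 1 CPM in at least 2 libraries), and 1 of the 10, Vsir, varied by more than counting noise at an adjusted p under 0.05 (edgeR, likelihood-ratio test of Poisson counts), beside 13.7% of the 13500 genes tested. The test calls abundant genes more often: it called 33.9% of the 2570 genes of at least 100 CPM, the level of Lag3 and Vsir, and 11.6% of the 6778 genes from 10 to 100 CPM, the level of Cd200, Cd226, Cd96, Tox and Tigit. Of the 4089 genes from 1 to 10 CPM, the level of Cd160, Havcr2 and Tox2, it called 4.65%. A share of 1 in 10 is near the background. The range between libraries had a median of 0.14 log2 units over the 10 genes and 0.17 over all genes tested. The summed level of the 10 genes was 544.5, 542.7 and 555.9 CPM in replicates 1, 2 and 3.

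Vsir stood at 159.7, 149.4 and 165.0 CPM, a range of 0.15 log2 units (adjusted p = 0.0264), with replicate 2 lowest. The call rested on 2 libraries: without replicate 2 the adjusted p was 0.441 and without replicate 3 it was 0.191, while without replicate 1 it was 0.0135, and all alternatives gave values within 0.0135 and 0.441. In the same fits the share of all genes called was 9.03% (without replicate 2), 5.61% (without replicate 3) and 8.48% (without replicate 1). Lag3 stood at 112.2, 116.7 and 122.3 CPM, and did not pass (adjusted p = 0.0827), but did without replicate 2 (adjusted p = 0.0459; 0.416 without replicate 1 and 0.568 without replicate 3). Its neighbours had their lowest value in replicate 1 and their highest in replicate 3 as well, with Cd4 at 364.3, 377.0 and 386.7 CPM (adjusted p = 0.0115) and Ptms at 46.0, 48.2 and 56.3 CPM (adjusted p = 0.00107). The same order of libraries occurred in listed genes on other chromosomes, among them Tigit, Foxp3 and Cd5, though not in all (Tcf7 was lowest in replicate 3). Foxp3 and Cd5 varied by more than counting noise, while Tigit did not (adjusted p = 0.685, edgeR's likelihood-ratio test). How many genes share this order was not counted, and a tie to the position of Lag3 was not tested. The summed T cell markers were also highest in replicate 3 (5290 CPM, against 5102 in both other libraries), and 8 of the 13 varied, all 13 being in the band of at least 100 CPM where 33.9% of genes did; their part in these differences was not tested.

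Cd226, Cd96 and Cd160 had an unadjusted p under 0.05 without passing after adjustment. Cd226 stood at 60.0, 58.8 and 53.1 CPM (adjusted p = 0.141), and Cd96 at 50.6, 57.1 and 52.7 CPM (adjusted p = 0.163), so their extremes fell in different libraries. Cd160 had a wider range of 0.51 log2 units (adjusted p = 0.168), and Tox2 a similar one of 0.52 (adjusted p = 0.382), at counting errors per library of 9.38% and 15.4%. The ranges were 0.12 for Tigit, 0.06 for Tox and 0.03 log2 units for Cd200. That of Havcr2 was 0.11, at a counting error of 15.4% per library, so a difference of moderate size was not detectable there.

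Over the pathway lists the test called 11 of 62 distinct genes (17.7%), near the 13.7% of all genes tested, and nothing is read from these counts. It called 1 of 6 tested genes of the LAG3 list (Adam10), 1 of 6 CD226 partners (Itgb2), 1 of 5 genes of the CD160 and BTLA list (Ltb), 1 of 2 VISTA partners (Selplg), 1 of 8 other inhibitory receptor genes (Cd5) and 1 of 6 genes of phosphatases and their partners (Ptpn11). Among the 15 TOX inducers and associated factors it called 4, namely Nr4a1, Irf4, Bach2 and Ikzf2. In edgeR's test none passed among 4 tested TIM-3 partners, 5 CD200 receptor and adaptor genes and 5 TOX family and partner genes, where 1, 0 and 1 had an unadjusted p under 0.05.

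**Figure D4:**
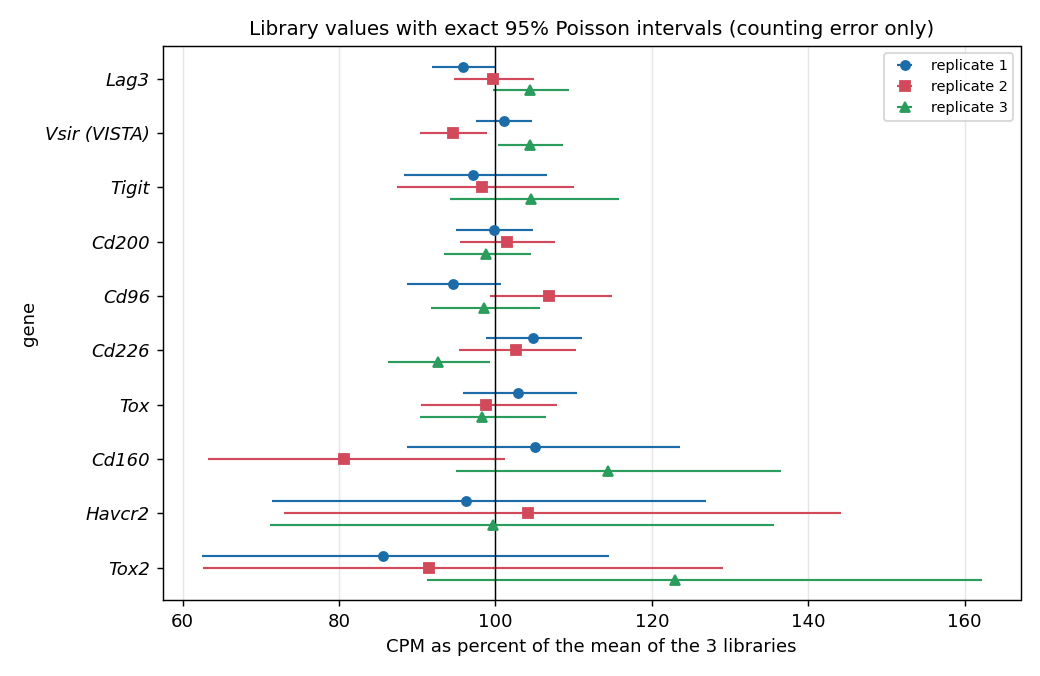
CPM of each gene in each library as a percentage of the mean of the 3 libraries (horizontal axis), with exact 95% Poisson intervals for counting error. The intervals of replicates 2 and 3 do not overlap for Vsir, and the wide intervals of Cd160, Havcr2 and Tox2 go with at most 145 reads per library.

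Among the 144 other genes of the lists with a length, those of most similar level were found by the largest absolute difference in log2(CPM per kilobase + 0.1) over the 3 libraries. Lrig1 was nearest to Tigit (0.03), Ctla4 to Vsir (0.07), Plcg1 to Cd200 (0.07) and to Cd96 (0.10), Blk to Havcr2 (0.08) and Ltb to Lag3 (0.09). Rasa1 was nearest to Cd226 (0.14), H2-Eb1 to Tox (0.19), Bcl6 to Cd160 (0.23) and Trdc to Tox2 (0.39). With 3 libraries of a single group this is a likeness of level and not of a pattern across conditions.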

How the data were processed

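RNA was measured in 3 libraries of a single group. The authors deposited raw counts of reads per gene symbol; they are whole and their totals differ by library. The submitters' processing notes name mm10. Aligner, counter, annotation, strand setting and multi-mapped reads: not given in the sources used here. Counts were divided by library totals (CPM) and by the union of exon lengths from GENCODE vM21 (GRCm38). Of 44788 symbols, 30940 matched by name and 1213 by RefSeq synonym. With 1 group no contrast could be fitted, so edgeR 4.0.16 compared the libraries (Poisson likelihood-ratio test by glmFit, dispersion 0; TMM factors of 0.996 to 1.003; Benjamini-Hochberg adjustment over all genes tested). Tested on Poisson counts simulated for the 13500 genes of that comparison, it found 74 of 100 genes that differed 1.5-fold in a library, found 95 of 100 that differed 2-fold, and made 8 false calls. The simulated counts follow the test's own model, so they do not show how it behaves where libraries spread more than counting gives. Ratios had 0.5 reads added to each count. The genes, lists and pairs were chosen with earlier results of these data known. Named were the 10 genes, up to 6 of the highest per kilobase and those without reads in each list, ratio partners, neighbouring and overlapping genes, and genes of nearest level. Other settings tried were size factors of DESeq2 1.42.0, library totals alone, other filters and lengths, 0.1 added reads, and leaving out each library. Versions were R 4.3.3, Python 3.11.15, scipy 1.17.1 and matplotlib 3.10.9.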

Additional observations from a re-analysis of the deposited data

How the results depend on the processing

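No paired analysis was possible because there is only 1 group of samples. Without length scaling, 4 of the 12 log2 ratios changed sign: Cd226 to Tigit became 1.25, Cd96 to Tigit 1.15, Cd96 to Cd226 -0.10 and 4632428N05Rik (Vsir) to Lag3 0.43. All 12 kept their sign with the longest transcript as length, with 0.1 reads added or with any library left out. The count of genes that varied between libraries was 1847, stayed between 1668 and 1882 under the other scalings and filters, and fell to 742 to 1193 with a library left out, where fewer libraries entered the test. The count of the 10 genes that varied was 1 in each scaling and filter and 0 to 1 with a library left out; the gene was Lag3 and not Vsir without replicate 2. With the filter at 5 CPM, Havcr2 and Tox2 were not tested. In each setting 6 to 8 of its own 9 pairs of neighbours in the order of levels had ranges apart, but the pairs differed: 3 of 10 positions changed with the longest transcript, 8 of 10 without length scaling, and 0 in the other settings. The low counts of Havcr2 and Tox2 limit what can be said of their variation.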
